A study of Mus musculus with 6 samples.

Results

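TRiC, the cytosolic chaperonin also called CCT, is a barrel of stacked rings built from related but distinct subunits, and it folds newly made proteins inside its closed chamber at the cost of ATP. Actin and tubulin are its best known clients, and many of its clients reach it by way of prefoldin, a separate co-chaperone. In the testis 1 ring position has an additional form, since the zeta subunit is encoded by the broadly used Cct6a and by Cct6b, a gene known for its expression in the testis. The genes described here are the 9 subunit genes listed by name, Tcp1, Cct2, Cct3, Cct4, Cct5, Cct6a, Cct6b, Cct7 and Cct8, out of 54532 genes in the count table. They are listed by gene name alone, although earlier results of these data were known when the list was made. All 9 were present in the table, and 8 of them, all but Cct6b, had enough reads to be tested.

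RNA was sequenced from leptotene and zygotene (L/Z) spermatocytes, the cells of early meiotic prophase, obtained by cell sorting of C57BL/6J mouse testes at 12 days postpartum (dpp). The groups were 3 control and 3 Eef1g-cKO libraries. In Eef1g-cKO males a floxed stretch of Eef1g, which encodes the gamma subunit of the translation elongation factor eEF1, is removed by Stra8-GFPCre, a Cre that acts in male germ cells from the spermatogonial stage onward. The controls are labelled wild type and were littermates in the study, and the alleles each control carried were not stated. Nor was it stated whether each library came from 1 animal or from pooled animals, so p-values measure the spread between these libraries.

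Libraries held 763133 to 2617648 reads, the fewest in Eef1g-cKO replicate 3, and 8513 genes could be tested. Eef1g was measured at 222, 226 and 212 CPM (reads per 1000000 reads of the scaled library) in control and at 139, 151 and 119 CPM in Eef1g-cKO (log2 fold change −0.68, SE 0.20, adjusted p = 0.029). Counts are per gene, so reads outside the deleted exons still count for Eef1g, and the source of the remaining reads was not tested. The adjusted p passed 0.05 in 9 of 15 alternative settings. The settings that failed included leaving out any 1 control library or Eef1g-cKO replicate 1. Markers moved with genotype: the 9 L/Z spermatocyte markers summed to 9834 to 11280 CPM in control and 21240 to 28180 CPM in Eef1g-cKO, with 6 of 9 higher, whereas the 8 spermatogonial markers summed to 1490 to 1671 and 673 to 827 CPM, with 5 of 5 tested lower. Sertoli cell markers summed to 78.6 to 278 CPM in control and 1.55 to 45.3 CPM in Eef1g-cKO, and peritubular and stromal markers to 102 to 211 and 12.4 to 45.9 CPM. Summed levels in the 2 genotypes were 26.8 to 42.0 and 0 to 15.3 CPM for pachytene and later markers, where Adam3 and Acrv1 were at 0. They were 8.40 to 10.7 and 1.57 to 6.47 CPM for Leydig markers, where Hsd3b1 and Cyp17a1 were at 0, and 6.72 to 77.9 and 3.24 to 75.7 CPM for blood markers, where Cd68 was at 0. The part of these shifts in the values below was not tested, and in sorted bulk cells a change in cell makeup and a change in RNA per cell cannot be told apart.

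None of the 8 tested TRiC genes differed between the genotypes beyond the test. By the edgeR quasi-likelihood test 0 of 8 passed an adjusted p of 0.05 as higher and 0 of 8 as lower, whereas 7.8% of all tested genes were called higher and 6.01% lower. With an absolute log2 fold change over 1 required as well, 3.42% of all tested genes were higher and 4.96% lower, again with no TRiC gene among them. At an unadjusted p under 0.05 the count was also 0 of 8, against 27.5% of all tested genes. DESeq2 and limma-voom gave 0 of 8 at either level. The log2 fold changes ran from −0.08 to 0.27 with a median of 0.21, and the median over all tested genes was −0.05. The estimates were positive for 6 genes and negative for Cct3 and Cct8. With libraries scaled by their totals alone the median of the 8 fell to 0.01, while that of all tested genes moved by −0.19.

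The precision of these comparisons is given by their 95% intervals. For all 8 genes the interval lay within −1 to 1 on the log2 scale, which 26.2% of all tested genes reached. The same held for 14 of 23 genes of the proteasome core and base, a comparison complex. The median interval width was 0.731 log2 units for the 8 genes and 1.715 over all tested genes, so this count reflects precision as well as size of change. Across the 8 genes the lowest bound was −0.44, for Cct8, and the highest was 0.69, for Cct7. Differences outside this span were therefore not within any of these intervals. Smaller differences in either direction were not resolved with 3 libraries a genotype. The span holds for this scaling of the libraries. With library totals alone the 8 estimates ran from −0.27 to 0.08, against −0.08 to 0.27 here.

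**Figure D1:**
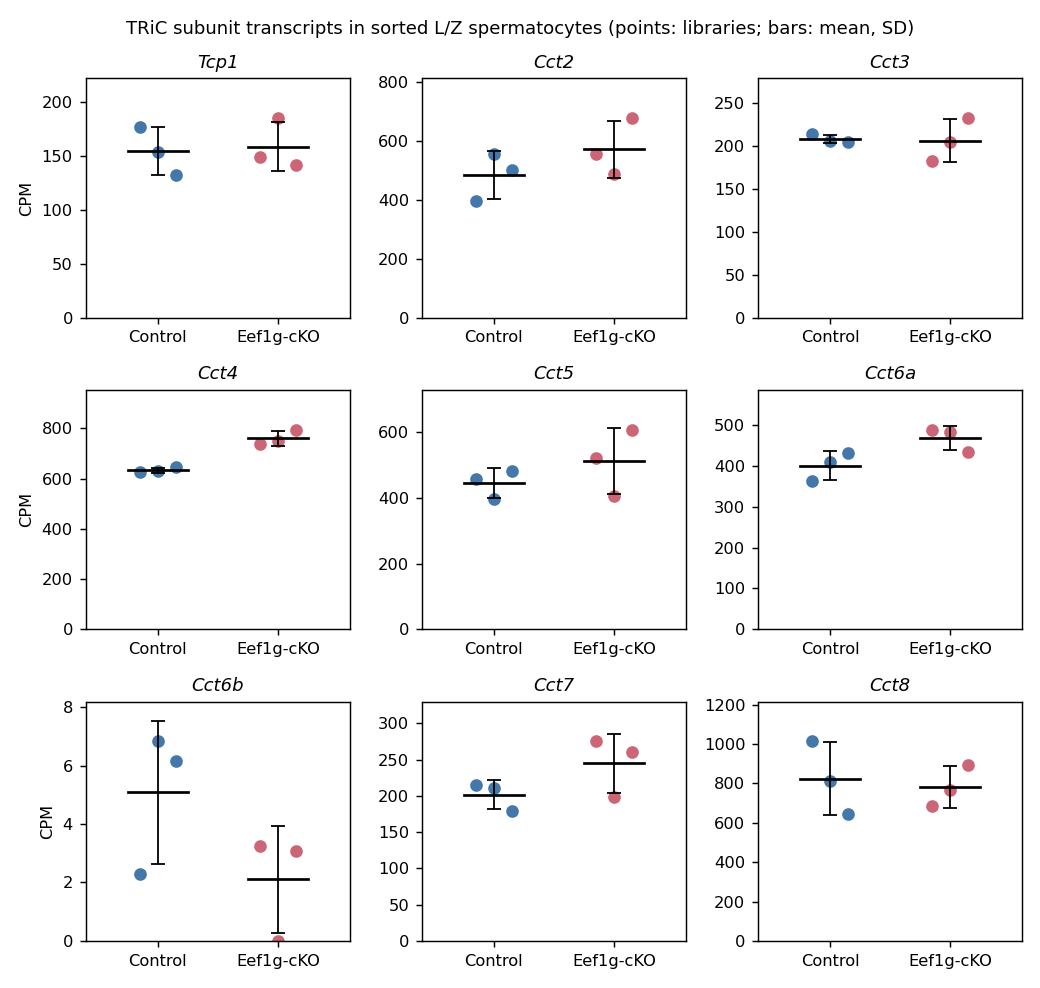
CPM of each of the 9 TRiC subunit genes in 3 control (blue) and 3 Eef1g-cKO (red) libraries, each on its own linear axis from 0. Points are libraries, horizontal bars are means and error bars are SD. The 2 groups overlap for every gene but Cct4 and Cct6a, where each Eef1g-cKO point lies above each control point, and Cct6b stays below 7 CPM throughout.

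Cct8, which encodes the theta subunit, had the most reads of the family over all 6 libraries together, although Cct4 had more in control replicate 3 and in Eef1g-cKO replicate 1. It lies on the minus strand at chr16:87483326-87495873 (GRCm38). Its levels were 1013, 814 and 642 CPM in control and 683, 768 and 893 CPM in Eef1g-cKO. The control libraries spread more widely than the Eef1g-cKO libraries and enclosed all 3 of them, with means of 823 ± 186 and 781 ± 105 CPM (SD, n = 3). The log2 fold change was −0.08 (SE 0.17, interval −0.44 to 0.29, adjusted p = 0.82), and it turned positive, to 0.11 and 0.04, without control replicate 1 and without Eef1g-cKO replicate 1.

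Cct4, which encodes the delta subunit, was the most even of the family. It lies on the plus strand at chr11:22990519-23003780. It stood at 625, 631.5 and 644 CPM in control and at 739, 748 and 794 CPM in Eef1g-cKO. Each Eef1g-cKO library was above each control library, and the range within a genotype was 0.04 and 0.10 log2 units. The log2 fold change was 0.26 (SE 0.14, interval −0.04 to 0.56), with the lowest p-value of the family, 0.083 before adjustment and 0.25 after it in the edgeR quasi-likelihood fit.

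Cct6a, the general form of the zeta subunit, lies on the plus strand at chr5:129786998-129846371, where the deposited table lists it as a processed transcript. It was measured at 362, 408 and 431 CPM in control and 488, 483 and 434 CPM in Eef1g-cKO. The highest control and the lowest Eef1g-cKO library were nearly level, so the groups were separate by a small margin. The log2 fold change was 0.23 (SE 0.16, interval −0.11 to 0.56, adjusted p = 0.38). Without Eef1g-cKO replicate 3, the shallowest library, it was 0.31 with an unadjusted p of 0.047 and an adjusted p of 0.17 by edgeR. Cct4 and Cct6a were the 2 of 8 genes whose libraries did not overlap in the higher direction, against 16.4% of all tested genes, and 0 of 8 did so in the lower direction, against 18.1%. With upper-quartile scaling only Cct4 remained separate, and with library totals alone neither did, while Cct3 became separate in the lower direction.

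Cct2, the beta subunit gene, lies on the minus strand at chr10:117051001-117063814, and its levels were 395, 555 and 503 CPM in control and 554, 486 and 676.5 CPM in Eef1g-cKO. Control replicate 1 was the lowest and Eef1g-cKO replicate 3 the highest, and the groups overlapped (log2 fold change 0.23, SE 0.17, interval −0.13 to 0.60, adjusted p = 0.41). Cct5, the epsilon subunit gene, lies on the minus strand at chr15:31590800-31601804. It was at 457, 396 and 482.5 CPM in control and 521, 407 and 607 CPM in Eef1g-cKO. In each genotype replicate 2 was the lowest, and the groups overlapped (log2 fold change 0.19, SE 0.17, interval −0.17 to 0.56, adjusted p = 0.51). With library totals alone the Cct5 estimate was −0.01.

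Cct3, Cct7 and Tcp1 had fewer reads than the other 5 tested genes in every library. Cct3, for the gamma subunit, lies on the plus strand at chr3:88297116-88321767 and stood at 213, 206 and 204 CPM in control and 182, 204 and 232 CPM in Eef1g-cKO. The Eef1g-cKO libraries lay on both sides of a narrow control range (log2 fold change −0.02, SE 0.19, interval −0.42 to 0.38, adjusted p = 0.96). Cct7, for the eta subunit, lies on the plus strand at chr6:85451514-85468475 and was measured at 215, 211 and 179 CPM in control and 275, 198 and 261 CPM in Eef1g-cKO. Eef1g-cKO replicate 2 fell inside the control range and the other two above it, and this gene had the largest estimate of the 8 (log2 fold change 0.27, SE 0.20, interval −0.14 to 0.69, adjusted p = 0.40).

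Tcp1, the founding gene of the family, encodes the alpha subunit and lies on the plus strand at chr17:12915701-12925067. It was measured at 177, 154 and 133 CPM in control and at 149.6, 185 and 142 CPM in Eef1g-cKO, with the groups interleaved. The log2 fold change was 0.05 (SE 0.22, interval −0.40 to 0.50, adjusted p = 0.91), and it was −0.13 with library totals alone. Of the 100-base windows of its transcript with the longest open reading frame, 20.2% also occur, on either strand, in transcripts of Acat2 or Acat3. Mrpl18, also on the opposite strand, overlaps the deposited span of Tcp1 and had 1463 reads over all 6 libraries, against 1512 for Tcp1. Cct7 and Cct8 shared 4.95% and 4.05% of such windows with Pradc1 and Usp16, both on the opposite strand. For Cct2, Cct3, Cct4, Cct5, Cct6a and Cct6b the share was 0%. The Cct6a transcript used holds its open reading frame alone, so bases outside that frame were not searched for it. Whether the counting used strand was not stated, so the values of Tcp1, and to a lesser degree those of Cct7, Cct8 and of Cct6a beside Psph, may hold reads of these neighbours or lack reads given to them.

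Cct6b was nearly undetected in these cells. It lies on the minus strand at chr11:82719250-82764321. It had 3, 13 and 11 reads in the control libraries and 4, 0 and 2 reads in the Eef1g-cKO libraries, or 2.29, 6.82 and 6.16 CPM and 3.24, 0 and 3.09 CPM. The groups overlapped, because control replicate 1 lay among the Eef1g-cKO libraries. A count of 3 reads, taken as the detection floor, corresponded to 1.18 to 4.63 CPM depending on the library, so most of these values lie near the floor.

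Cct6a and Cct6b can be told apart by sequence, which matters for reading so few counts. In GENCODE M21 their longest open reading frames share 74.8% of aligned bases (1186 of 1585) and 75.9% of aligned residues (403 of 531), and the longest run of identical bases is 20. No 100-base window of either transcript occurs in another gene. The other 35 pairs of subunits share 23.9% to 38.1% of residues. The first 90 coding bases of both genes are shown because they carry 28 of the differences, which are in capitals.
Cct6a: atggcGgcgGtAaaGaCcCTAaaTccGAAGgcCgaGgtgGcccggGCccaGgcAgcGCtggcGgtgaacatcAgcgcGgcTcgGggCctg
Cct6b: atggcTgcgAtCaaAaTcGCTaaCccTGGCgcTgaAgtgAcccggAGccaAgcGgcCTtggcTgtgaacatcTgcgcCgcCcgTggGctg

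The testis form made up at most 1.64% of the zeta subunit reads of any library. Of the reads of Cct6a and Cct6b together, Cct6b accounted for 0.629%, 1.64% and 1.41% in the control libraries, with 95% Clopper-Pearson intervals of 0.130% to 1.83%, 0.878% to 2.79% and 0.705% to 2.51%. In the Eef1g-cKO libraries the shares, with intervals of the same kind, were 0.659% (interval 0.180% to 1.68%), 0 of 1232 reads (interval up to 0.299%, or up to 0.244% by the floor of 3 reads), and 0.707% (interval 0.0857% to 2.53%). Only the deepest Eef1g-cKO library, replicate 2, fell outside the control values. Summed over libraries the share was 27 of 2049 reads in control, 1.32% (interval 0.870% to 1.91%), and 6 of 2122 reads in Eef1g-cKO, 0.283% (interval 0.104% to 0.614%). Summing ignores the spread between libraries. The reads carry no molecular identifiers, so these intervals, which take each read as an independent count, may be too narrow even for counting error. Over libraries, the log2 ratio of Cct6b to Cct6a with 0.5 reads added was 2.05 lower in Eef1g-cKO (−8.38 ± 2.50 against −6.33 ± 0.66, SD, n = 3), with a 2-sided exact permutation p of 0.3, where 3 against 3 cannot go below 0.1. Leaving out 1 library gave differences of −2.83 to −0.61, with the smallest without Eef1g-cKO replicate 2. With 3 reads added the difference was −1.08 (exact permutation p of 0.2), and −1.66 to −0.23 when 1 library was left out. Because its p cannot go below 0.1, the permutation test cannot decide whether the share of Cct6b was lower in Eef1g-cKO. The intervals of the summed shares did not overlap, but they take each read as independent. Eef1g-cKO replicate 2, with 0 reads of Cct6b, held 1232 of the 2122 summed Eef1g-cKO reads. Across libraries only Eef1g-cKO replicate 2 lay outside the control values, so a difference between the genotypes was left undecided.

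The summed TRiC level stayed within a narrow range. The 9 genes together made up 3460, 3383 and 3225 CPM in control and 3594, 3479 and 4042 CPM in Eef1g-cKO, or 3356 ± 120 and 3705 ± 297 CPM (SD, n = 3). Each Eef1g-cKO library was above each control library on this scale, by 0.14 log2 units between the means. As a share of all reads the order turned, at 0.358%, 0.351% and 0.343% in control and 0.340%, 0.339% and 0.343% in Eef1g-cKO, so the direction of the sum depends on how libraries are scaled.

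Per length, the subunits fell into an upper and a lower set. On the deposited gene lengths, reads per kilobase and per 1000000 scaled reads (RPKM) in control were 266.5 ± 60.1 for Cct8, 189 ± 31.8 for Cct2, 161 ± 16.0 for Cct5 and 151 ± 2.33 for Cct4 (SD, n = 3), and neighbours in this order overlapped. Cct6a followed at 111 ± 9.75 RPKM, below every Cct4 value and above every value of the next gene. Cct3, Tcp1 and Cct7 lay close together at 32.6 ± 0.73, 30.8 ± 4.42 and 29.8 ± 2.91 RPKM, and Cct6b at 2.72 ± 1.31 RPKM. The sets were the same in Eef1g-cKO, where the upper 5 kept their order from Cct8, at 253 ± 34.1, to Cct6a, at 129 ± 8.21, and Cct7, Cct3 and Tcp1 had 36.1 ± 6.02, 32.3 ± 3.91 and 31.6 ± 4.56 RPKM. Among the tested genes the 5 upper subunits stood at percentiles 94.5 to 97.8 of the control RPKM values and the 3 lower ones at 79.4 to 81.0.

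The deposited lengths join all exons of a gene, and they run long for genes with many transcript forms. With the length of the transcript that holds the longest open reading frame, chosen after the data were seen, the control order was Cct8 at 344 RPKM, then Cct4, Cct6a, Cct2 and Cct5 between 240.3 and 255 RPKM, then Cct3 at 105, Cct7 at 82.7, Tcp1 at 63.2 and Cct6b at 2.85 RPKM. For Cct6a that transcript, of 1599 bases, holds the open reading frame alone, whereas for the other genes it is longer. The place of Cct6a in this order therefore does not rest on a like length. Cct8 did not overlap Cct4 on this length, but its lowest library, at 268 RPKM, lay below the highest of Cct6a and Cct2, at 269.6 and 283 RPKM. With the length of that open reading frame alone, also chosen after the data were seen, the control order was Cct8 at 499.6, Cct4 at 391, Cct2 at 301, Cct5 at 274, Cct6a at 250.4, Cct3 at 127, Cct7 at 123, Tcp1 at 92.6 and Cct6b at 3.19 RPKM. The same 5 genes were thus in the upper set on all 3 lengths, while their order, and that of Cct3, Cct7 and Tcp1, depended on the length. Only Cct3 had a share of the summed RPKM that did not overlap between genotypes, which held on all 3 lengths, with deposited lengths 3.35% ± 0.067 in control and 3.01% ± 0.24 in Eef1g-cKO (SD, n = 3; 2-sided exact permutation p = 0.1, the smallest possible, and 0.72 after Benjamini-Hochberg adjustment over the 9 shares).

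**Figure D2:**
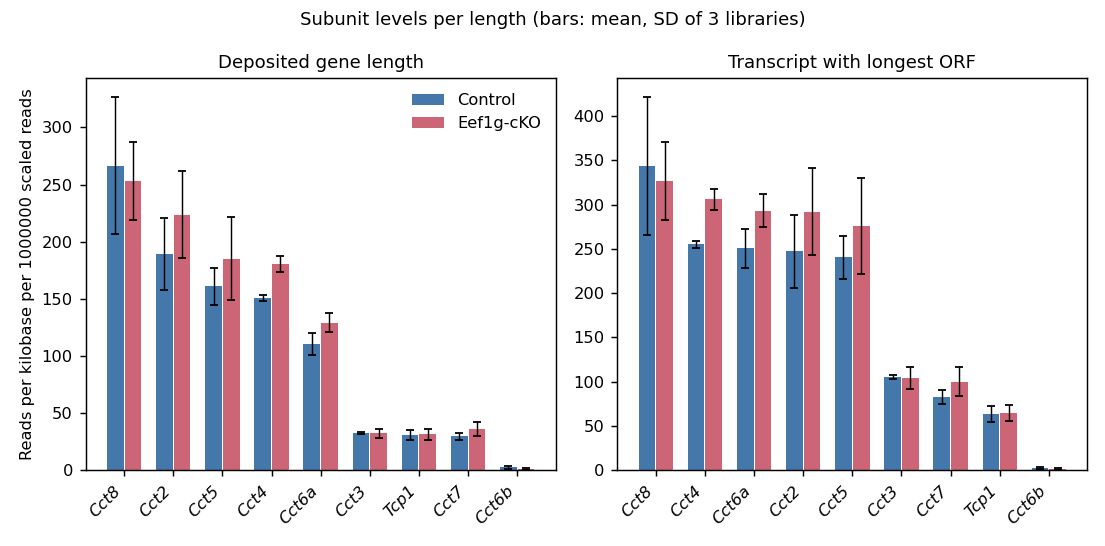
Level per length of the 9 TRiC genes in control (blue) and Eef1g-cKO (red), with the deposited gene length on the left and the length of the transcript with the longest open reading frame (ORF) on the right. Bars are means and error bars SD of 3 libraries, in order of the control mean; 5 genes stand well above Cct3, Cct7 and Tcp1 on both lengths and Cct6b is near 0.

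Upstream sequence was compared for the 8 genes with a RefSeq promoter entry, all but Cct4. Cct2 and Cct5 have 2 start sites each there, so the 250 bases before each start site made 10 windows. GGGCGG (the GC box, searched on both strands) was found in 8 of these 10 windows, those of Cct6b and of 1 Cct5 start site being without it, and in 32.7% of 32817 windows of the same length from all promoters. CCAAT, also on both strands, was found in 4 of 10 windows, those of Tcp1, Cct3, Cct6a and Cct7, and in 33.8% of all windows. GAANNTTC, a core of the heat shock element, was found in 1 of 10 windows, before the Cct2 start site whose sequence is not printed here (6.69% of all windows), and TGACG, contained in the longer TGACGTCA, in 1 of 10, that of Cct6a (17.7%). TGACGTCA (1.55%) and CACGTG (6.02%) were found in none. Starts of genes on the opposite strand lay 6 to 136 bases away for Cct5 (Fam173b), Tcp1 (Mrpl18), Cct6b (Zfp830), Cct6a (Psph), Cct8 (B130034C11Rik) and Cct3 (Tsacc). For Cct5 this is from the nearer of its start sites, the other being 313 bases away. The nearest start was 465 bases away for Cct7 (Pradc1) and 18034 and 18511 for the Cct2 sites (Lrrc10). How many of all promoters have so near a start was not counted. The 4 stretches below, from RefSeq on GRCm38.p6, are those that lie outside annotated exons for 2 of the highest genes per length, Cct8 and Cct2, and 2 of the lowest, Cct3 and Cct7. They are written on the strand of the gene, with GC boxes and CCAAT boxes of either strand in capitals. Cct8 is from chr16:87495874-87495998 (minus), Cct2 from chr10:117063853-117064102 (minus), Cct3 from chr3:88297000-88297115 (plus) and Cct7 from chr6:85451284-85451504 (plus).
Cct8: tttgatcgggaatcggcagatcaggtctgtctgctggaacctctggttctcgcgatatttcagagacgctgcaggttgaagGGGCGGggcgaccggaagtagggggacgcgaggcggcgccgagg
Cct2: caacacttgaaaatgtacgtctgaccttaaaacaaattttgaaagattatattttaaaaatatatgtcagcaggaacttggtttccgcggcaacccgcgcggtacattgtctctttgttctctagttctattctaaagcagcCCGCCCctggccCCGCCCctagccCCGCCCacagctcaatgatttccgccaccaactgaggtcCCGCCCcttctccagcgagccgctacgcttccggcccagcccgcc
Cct3: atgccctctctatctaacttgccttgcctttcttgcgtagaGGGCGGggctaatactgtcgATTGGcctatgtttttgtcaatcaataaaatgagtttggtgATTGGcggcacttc
Cct7: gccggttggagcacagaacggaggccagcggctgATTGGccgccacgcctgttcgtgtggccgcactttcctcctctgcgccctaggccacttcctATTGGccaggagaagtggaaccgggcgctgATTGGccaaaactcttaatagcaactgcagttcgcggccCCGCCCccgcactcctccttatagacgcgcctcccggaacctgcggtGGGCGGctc

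The Cct2 stretch held 4 GC boxes and no CCAAT box, and that of Cct8 held 1 GC box. The stretches of Cct3 and Cct7 held 2 and 3 CCAAT boxes with 1 and 2 GC boxes. The stretches differ in length, at 125, 250, 116 and 221 bases for Cct8, Cct2, Cct3 and Cct7. Of the genes not printed, Cct6a had 2 CCAAT boxes and Tcp1 had 1 in the 250 bases upstream, and Cct5 and Cct6b had 0. These matches are letters in a window and were not tied to any measured binding.

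Prefoldin, the co-chaperone that hands unfolded actin and tubulin to TRiC, was measured through all 6 of its subunit genes. In Eef1g-cKO 1 was higher and 1 lower, against 7.8% and 6.01% of all tested genes, with a median log2 fold change of −0.08. Pfdn1, for a beta-type subunit, fell: control libraries averaged 98.7 ± 9.44 and Eef1g-cKO libraries 27.5 ± 5.26 CPM (SD, n = 3), and the log2 fold change was −1.81 (SE 0.31, adjusted p = 0.00084). Vbp1, for an alpha-type subunit also named prefoldin 3, rose: control libraries averaged 123 ± 33.4 and Eef1g-cKO libraries 284 ± 81.2 CPM, and the log2 fold change was 1.21 (SE 0.24, adjusted p = 0.0025). Both calls held in 15 of 15 alternative settings. The estimates of the other 4 were −0.29 for Pfdn2, −0.21 for Pfdn6, 0.05 for Pfdn5 and 0.14 for Pfdn4, with intervals that included 0. Without Eef1g-cKO replicate 3 Pfdn2 was called lower as well (−0.67, adjusted p = 0.034 by edgeR).

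Of the cofactors that act on TRiC, the phosducin-like genes Pdcl, Pdcl2 and Pdcl3 and Txndc9, 0 of 4 were higher or lower, at an unadjusted p under 0.05 too, with log2 fold changes from −0.44 (Txndc9) to 0.26 (Pdcl). Of the chaperonin-like genes that take part in assembling the BBSome, Bbs10 and Mkks were tested and neither was called at either level of p, with estimates of −0.70 (SE 0.87) and 0.67 (SE 0.69). The subunit-like gene Cct8l1 had 0 reads in every library. The mitochondrial chaperonin was measured for comparison. Hspe1, its lid, fell: control libraries averaged 903 ± 73.7 and Eef1g-cKO libraries 387 ± 59.2 CPM, and the log2 fold change was −1.22 (SE 0.16, adjusted p = 7.1e-05), whereas Hspd1, its barrel, was at 175 ± 24.4 and 231 ± 29.8 CPM (log2 fold change 0.39, SE 0.20, adjusted p = 0.21).

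Tubulins are clients of TRiC. Of 19 tubulin genes 10 could be tested, and 6 were lower and 0 higher, with a median log2 fold change of −0.95. Over all tested genes 6.01% were called lower and 7.8% higher. Tubb5, a beta-tubulin, averaged 236 ± 15.6 CPM over control and 36.1 ± 19.2 CPM over Eef1g-cKO libraries, and its log2 fold change was −2.64 (SE 0.30, adjusted p = 2.2e-05), and this call held in 15 of 15 alternatives. Tuba1a (−1.91), Tuba1b (−1.27), Tuba3b (−0.99), Tubb4b (−0.90) and Tuba3a (−0.84) fell as well, each with an adjusted p between 0.018 and 0.032 by edgeR. Tube1, for epsilon-tubulin, had the only positive estimate, 0.70 (SE 0.54), followed by Tubb2a at −0.59 (SE 0.97). The count of 6 fell to 2 without control replicate 1, to 1 without control replicate 2, and to 3 without Eef1g-cKO replicate 1 or 2. Tubulin genes have close copies in the genome, Tuba3a and Tuba3b among them, so the division of reads between them is uncertain. Spermatogonial and somatic markers were lower in the same libraries, and their part in the tubulin values was not tested.

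Against the TRiC reads of the same library, which needs no scaling, the 10 tubulin genes had 29.4, 29.4 and 28.5 reads per 100 TRiC reads in control and 12.2, 12.9 and 10.1 in Eef1g-cKO. The groups did not overlap, at 29.1 ± 0.51 and 11.8 ± 1.48 (SD, n = 3). The summed tubulin level itself averaged 977 ± 50.9 CPM over control and 432 ± 21.8 CPM over Eef1g-cKO libraries.

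**Figure D3:**
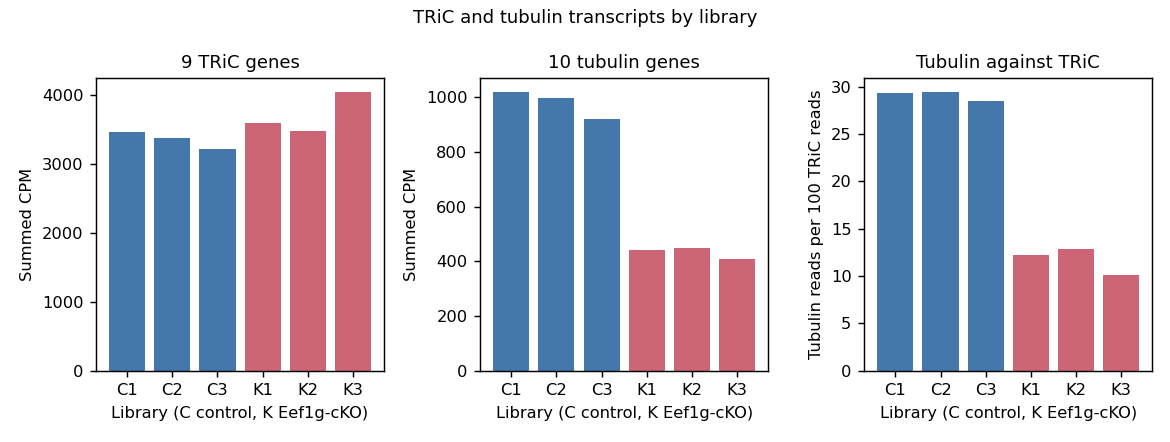
Summed CPM of the 9 TRiC genes (left), summed CPM of the 10 tested tubulin genes (middle) and tubulin reads per 100 TRiC reads (right) in each library, control replicates 1 to 3 in blue (C) and Eef1g-cKO replicates 1 to 3 in red (K). TRiC sums lie between 3225 and 4042 CPM in all 6 libraries, whereas tubulin sums are 920 to 1017 CPM in control and 408 to 449 CPM in Eef1g-cKO.

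Of the actins, the other classical clients, 2 of 8 could be tested and 1 was lower, against 6.01% of all tested genes. Actb fell: control libraries averaged 893 ± 63.5 and Eef1g-cKO libraries 377 ± 96.5 CPM, and the log2 fold change was −1.23 (SE 0.18, adjusted p = 0.00017), whereas Actg1 was at 284 ± 31.6 and 266 ± 7.14 CPM (log2 fold change −0.10, SE 0.18, interval −0.46 to 0.27, adjusted p = 0.77). Actb and Hspe1 both have processed copies in the genome that could share their reads.

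Of the cofactors that fold tubulin after TRiC releases it, 3 of 6 could be tested, and edgeR called 0 of them in either direction. At an unadjusted p under 0.05 by edgeR there were 2 of 3, against 27.5% of all tested genes. Tbcb was at 57.6 ± 5.82 and 27.1 ± 7.25 CPM (log2 fold change −1.05, SE 0.36, adjusted p = 0.060), and Tbca was at 489 ± 40.1 and 641.5 ± 127 CPM (log2 fold change 0.40, SE 0.17, adjusted p = 0.13). DESeq2 and limma-voom both called Tbcb lower, and limma-voom called Tbca higher. Among 11 other proteins known to need TRiC, 10 genes were tested and 0 were called by edgeR. At an unadjusted p under 0.05 by edgeR there were 2 of 10, against the same 27.5% of all tested genes. The 2 were Ppp2r2a, a phosphatase subunit (log2 fold change −0.89, SE 0.30, adjusted p = 0.056), and Stat3 (1.22, SE 0.48, adjusted p = 0.10). DESeq2 and limma-voom both called Ppp2r2a lower, and edgeR called Stat3 higher without Eef1g-cKO replicate 2 (1.58, adjusted p = 0.034). Gnb2, a G protein beta subunit, and Ccne1, cyclin E, had estimates of −1.39 (SE 0.70) and 0.58 (SE 0.64).

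**Figure D4:**
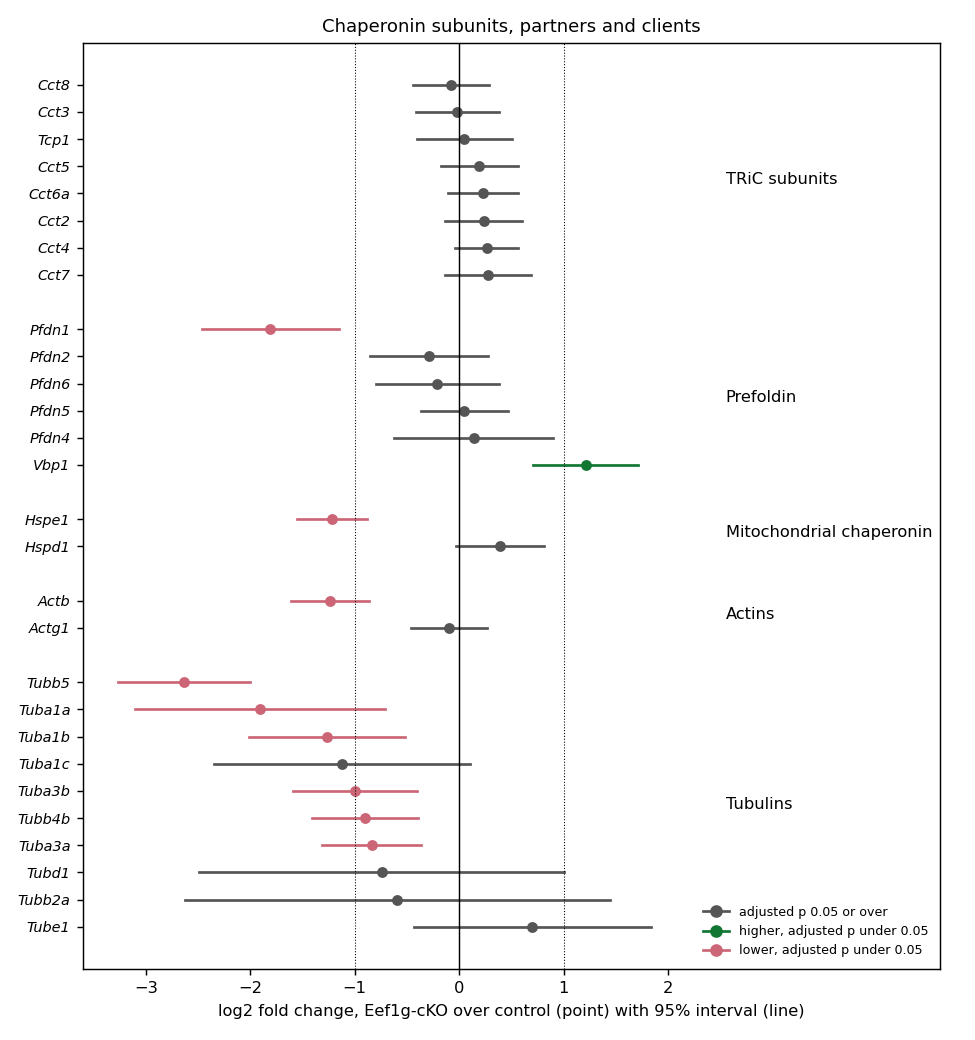
Log2 fold change, Eef1g-cKO over control, with its 95% interval for the tested TRiC subunit genes, prefoldin subunits, mitochondrial chaperonin, actins and tubulins. Grey marks an adjusted p of 0.05 or over, green a higher and red a lower gene, and dotted lines stand at −1 and 1. All 8 TRiC intervals lie between the dotted lines and include 0, whereas 1 prefoldin subunit, Hspe1, Actb and 6 tubulins are lower and Vbp1 is higher.

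Another large complex and the heat shock genes were counted for comparison. Of 23 genes of the proteasome core and base, 1 was higher and 5 were lower, against 7.8% and 6.01% of all tested genes. Their median log2 fold change was −0.31. Psma6 (0.63, adjusted p = 0.023) rose, and Psmb5 (−1.46), Psmb3 (−1.10), Psma7 (−0.90), Psma4 (−0.84) and Psmb1 (−0.78) fell, with adjusted p from 0.0028 to 0.022 by edgeR. The 5 lower calls became 3 without control replicate 1, control replicate 3 or Eef1g-cKO replicate 1, and the higher call was lost without control replicate 1, control replicate 2 or Eef1g-cKO replicate 2. Of 13 tested cytosolic heat shock genes 0 were higher and 2 lower, against the same shares of all tested genes. The 2 were Hsp90ab1 (−0.86, adjusted p = 0.029 by edgeR) and Hspa8 (−0.73, adjusted p = 0.0026 by edgeR), and the median of the 13 was 0.04. Stip1 and Hsp90aa1 had the highest estimates, 0.79 (SE 0.47) and 0.68 (SE 0.27), and DESeq2 called Hsp90aa1 higher. The Hsp90ab1 call was lost without control replicate 1, Eef1g-cKO replicate 1 or Eef1g-cKO replicate 2.

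Genes with a pattern over the 6 libraries most like that of the 8 TRiC genes were found by the root mean square difference of centred log2(CPM + 1) values, among 3676 other genes with at least 50 CPM on average. They were Tpx2 (0.048), a spindle assembly factor, Sfpq (0.060), Hnrnpf (0.060) and Syncrip (0.060), which bind RNA, and Sod1 (0.061), the cytosolic superoxide dismutase. The members themselves lay 0.076 (Cct4) to 0.21 (Cct8) from their own mean pattern, each further than the genes just named. That mean pattern was nearly flat, at −0.12 to 0.17 log2 units, so likeness to it is mostly a small spread over the libraries.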

How the data were processed

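RNA of 6 libraries was amplified as full-length cDNA, without molecular identifiers. The authors filtered reads with fastp, aligned them to GRCm38 with HISAT2 and deposited raw counts per gene from featureCounts; strand setting and treatment of reads with several alignments are not given in the sources used here. DESeq2 is also named in the submitters' notes.

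Counts were tested with edgeR 4.0.16 in R 4.3.3: filterByExpr (minimum count 10, minimum total 15) left 8513 genes with 98.1% of reads, libraries were scaled by TMM, and a robust quasi-likelihood F test with genotype as the only term was used, with Benjamini-Hochberg adjustment across the tested genes. Higher or lower means an adjusted p under 0.05. CPM used TMM-scaled library sizes. Alternatives were RLE, upper-quartile and total scaling, DESeq2 1.42.0, limma-voom 3.58.1 with quality weights, no filter, a stricter filter (10 or more reads in each library), non-robust estimation, a replicate block and leaving out each library. The code was tested on simulated data. Identities, windows and motifs were computed from GENCODE M21 and RefSeq tables with Python 3.11.15.

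The TRiC genes and the other lists were chosen with earlier results of these data known. From each other list the text names the 2 tested genes with the lowest and the 2 with the highest log2 fold change, at most, and any called gene; Pfdn5, Pfdn6 and Cct8l1 are named beside them. Libraries held 763133 to 2617648 reads, so that 3 reads equal 1.18 to 4.63 CPM.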

Additional observations from a re-analysis of the deposited data

How the results depend on the processing

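The count of 0 higher and 0 lower TRiC genes was the same in all 15 alternatives, and the lowest adjusted p of a member was 0.17. Small estimates changed sign. Tcp1 was −0.0874 under the stricter filter (10 or more reads in each library), −0.134 with library totals alone and −0.0751 with upper-quartile scaling (−0.0652 to 0.168 when 1 library was left out). Cct3 was 0.0225 without a filter (−0.0675 to 0.092 when 1 library was left out), Cct5 −0.0125 with library totals, and Cct8 −0.226 to 0.112 when 1 library was left out. Library totals gave a median of 0.0082 for the 8 genes (0.15 to 0.25 when 1 library was left out) and −0.0579 for the log2 change of the summed CPM.

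Scaling moved the median of all tested genes by −0.19 (library totals) and −0.12 (upper quartile), and dropping the filter by −0.25. Library totals called 333 genes higher, and leaving out 1 library called 374 to 834 higher and 238 to 668 lower. The range over left-out libraries was 1 to 7 lower tubulins, 1 to 2 lower prefoldin subunits, 0 to 1 tubulin cofactors and 0 to 1 other clients in each direction, 0 to 2 higher and 3 to 6 lower proteasome genes, and 0 to 1 higher and 1 to 2 lower heat shock genes. DESeq2, limma-voom, the stricter filter, library totals and upper-quartile scaling each called 1 tubulin cofactor (Tbcb) and 1 other client (Ppp2r2a) lower, and limma-voom called 1 tubulin cofactor and 2 proteasome genes higher. Proteasome genes higher were 0 with the stricter filter, library totals and upper-quartile scaling, the last with 8 lower. Heat shock genes higher were 1 (Hsp90aa1) with DESeq2, without a filter and with non-robust estimation. The cause was not tested.

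Deviations of same-numbered libraries from their genotype means correlated at −0.037, 0.019 and −0.049. Differently numbered libraries were not set beside them, so pairing by litter or batch was not tested. With a replicate block the 8 TRiC estimates were −0.06 to 0.26, 0 were called (lowest adjusted p 0.36), 5 tubulins were lower and 0 proteasome genes were higher. Without the filter Cct6b could be fitted, at −1.38 (SE 1.42, interval −4.17 to 1.41, adjusted p = 0.57), a value set largely by counts near the floor. Transcript length and open reading frame length, both added after seeing the data, moved the control share of 6 of 9 subunits each by more than 1 SD, for Cct3 from 3.35% to 6.61% and 6.15%; the planned coding length from a protein table was replaced by the second. Depth limits Cct6b most, since 3 reads equal 4.63 CPM in Eef1g-cKO replicate 3.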
